A study of Mus musculus with 9 samples.

Results

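Proteasome genes were examined at 3 ages in stem cells sorted from hair follicles of male mice of C57BL/6J, an inbred laboratory strain. The members are the 50 rows of the deposited expression table, of 37980, whose symbol is Psma, Psmb, Psmc, Psmd, Psme, Psmf or Psmg followed by a number only. They hold 48 gene symbols, since Psmb9 and Psmd14 have 2 rows each, and 47 of the rows passed the filter on low values. The rule reads names alone, and was set with earlier results of these data known. The cells had been sorted from back and belly skin by high CD49f, an integrin of basal keratinocytes, and by surface CD34, a pair used to take cells of the follicle bulge. Groups were 3 months, 19 months and 24 months, with 3 libraries each, and no genetic change or treatment is given for any of them. Whether separate or pooled animals gave the libraries of each group is not in the labels. The p-values therefore cover the spread among libraries, and that spread could be technical. In the labels the library numbers of 3 months and those of the older ages form separate runs, so a batch that follows these runs and age cannot be told apart.

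The proteasome degrades proteins that carry ubiquitin chains. Its core is a barrel of alpha rings, which gate the entrance, around beta rings, in which Psmb5, Psmb6 and Psmb7 encode the subunits that cut peptide bonds. A regulatory cap binds and unfolds the substrate. The base of the cap holds the ATPases (Psmc genes), and its lid holds Psmd subunits and the deubiquitinase Psmd14. Under interferon, and constitutively in many immune cells, Psmb8, Psmb9 and Psmb10 take the places of Psmb5, Psmb6 and Psmb7, which gives the immunoproteasome. Psme1 and Psme2 encode the subunits of an interferon-induced activator that docks on the core in place of the cap. The peptides that result feed MHC class I presentation.

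Values are FPKM, fragment counts scaled to transcript length and to the mapped fragments of the library, so that levels of different genes can be set side by side. Depth is unknown, so no counting interval can be given. FPKM summed to 567307 to 751243 over the protein-coding rows of a library, and the median over tested genes was 9.96 to 11.2 FPKM. The genes of both sort markers were detected in every library, Cd34 at 403 to 632 FPKM and Itga6, which encodes CD49f, at 72.7 to 117 FPKM. The basal keratin gene Krt14 stood at 3235 to 6619 FPKM, and Krt15, a bulge keratin gene, was listed at 0 in all 9 libraries. Some zeros of the table are failed estimates: the ubiquitin gene Ubb, used by every cell, was also listed at 0 in all 9 libraries. Differences between ages were tested with limma on log2(FPKM + 1) over 11620 protein-coding genes, two-sided, with Benjamini-Hochberg adjustment over all of them and a threshold of 0.05. On that scale the changes of lowly expressed genes come out too small. The error after a mean FPKM is the SD of 3 libraries, and the error after a log2 change is limma's standard error. In bulk RNA, more cells of a kind and more RNA per cell cannot be told apart.

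Proteasome transcripts were abundant at every age. By mean FPKM over the 9 libraries, 45 of the 47 tested rows lay above the median of all tested genes and 25 above the 90th percentile. Subunits that the particle holds in equal number differed widely in FPKM. Whether the estimates of low rows were too small was not tested. In the constitutive beta ring, Psmb6 was the highest, at 458 to 635 FPKM over the 9 libraries, and the structural subunit Psmb4 the lowest, at 49.1 to 67.1 FPKM. In the alpha ring, Psma7 stood at 257 to 350.2 FPKM and Psma2 at 51.0 to 79.5 FPKM. Psma8, the testis-specific counterpart of Psma7, was listed at 0 in 8 libraries and at 0.0440 FPKM in the other. Psmb11, the catalytic subunit of thymic epithelium, lay between 0.235 and 0.518 FPKM. These 2 genes and the second row of Psmd14, listed at 0 in all 9 libraries, were the members that did not pass the filter.

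**Figure D1:**
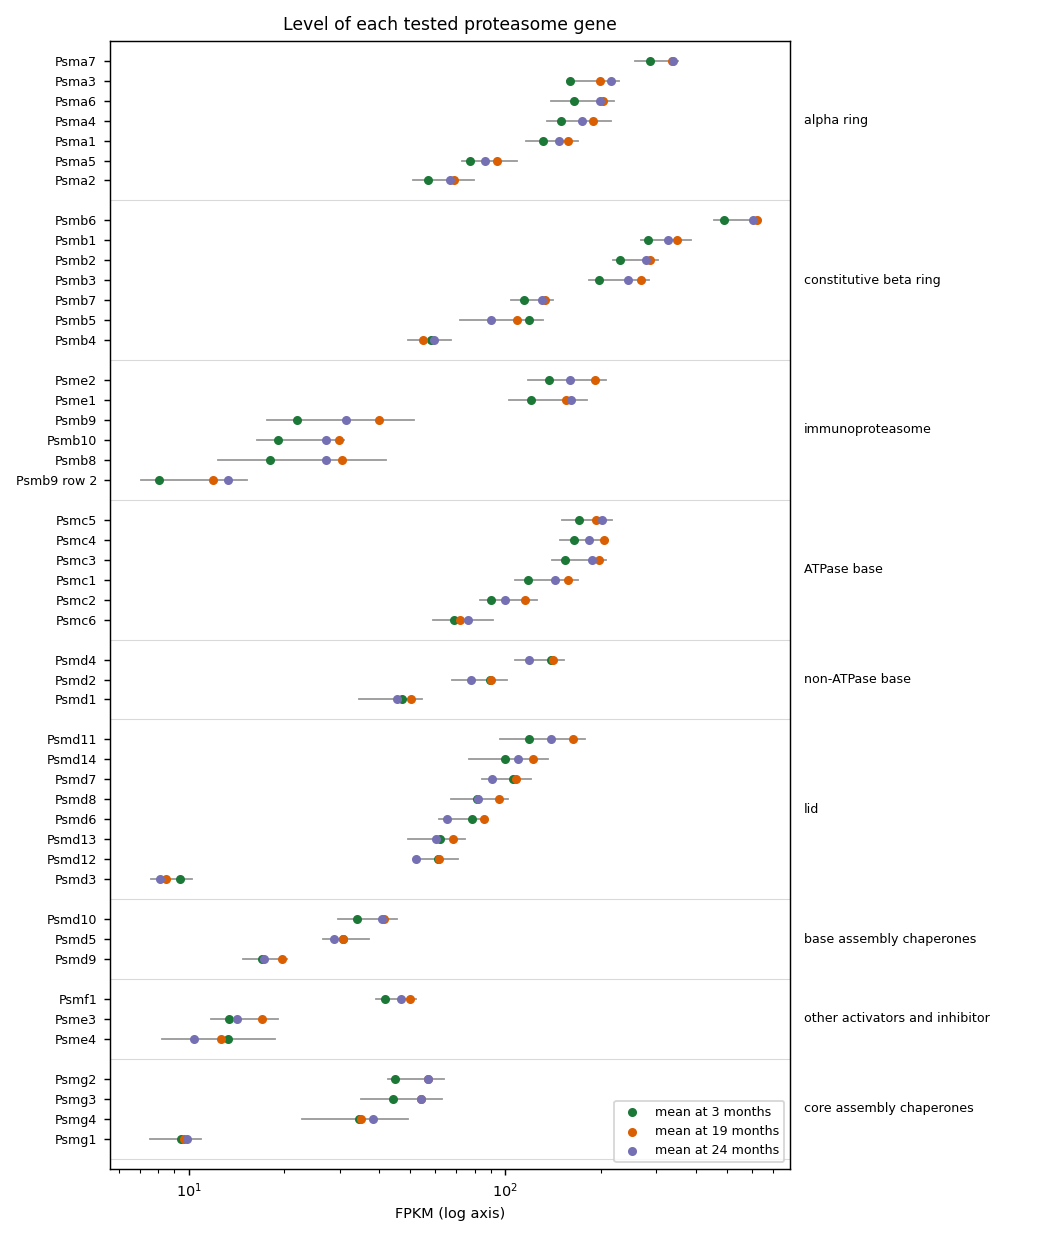
FPKM on a log axis for each of the 47 tested proteasome rows, grouped by role; coloured points are means of 3 libraries at 3, 19 and 24 months, and grey lines span the 9 libraries. Psmb6 lies highest, and Psmd3, at 7.61 to 10.2 FPKM, far below the other lid rows.

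The ATPases of the base lay closer together, from Psmc6 at 58.9 to 91.2 FPKM to Psmc5 at 151 to 217 FPKM. Among the other base subunits, the ubiquitin receptor Psmd4 stood at 108 to 153 FPKM and the scaffold Psmd1 at 34.5 to 54.6 FPKM. Among the lid rows, all of them Psmd genes by the name rule, Psmd11 was the highest, at 96.0 to 178 FPKM. Lid subunits under other names were not members. The lowest tested lid row, named after its values were seen, was Psmd3 at 7.61 to 10.2 FPKM, while the other tested lid rows did not go below 49.1 FPKM. Among the members, the assembly chaperones (Psmd5, Psmd9, Psmd10 and Psmg genes) were lower than most subunits. The base chaperones ran from Psmd9 at 14.8 to 20.4 FPKM to Psmd10 at 29.6 to 45.5 FPKM. The chaperones of the core ran from Psmg1 at 7.56 to 10.9 FPKM to Psmg2 at 42.4 to 64.0 FPKM.

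The interferon-induced catalytic subunits were the lower member of each catalytic pair in every library. Psmb8 replaces Psmb5, and Psmb9 replaces Psmb6. To show the regulatory sequence of these pairs, the 250 bases before each start are given here 5′ to 3′ on the gene's strand, from RefSeq on GRCm38.p6, a later build than the NCBIM37 of the expression table. Capitals mark matches to 3 motifs searched on both strands. GAAA and GAAA 2 bases apart resembles the interferon-stimulated response element, bound by interferon regulatory factors. TTCNNNGAA resembles the gamma-activated sequence of interferon-induced genes. TGANNNNGC resembles the antioxidant response element, bound by NFE2L1 and NFE2L2. Psmb5 lies at chr14:54617996-54618245 (- strand), Psmb8 at chr17:34197945-34198194 (+ strand), Psmb6 at chr11:70525107-70525356 (+ strand) and Psmb9 at chr17:34187331-34187580 (- strand).
Psmb5: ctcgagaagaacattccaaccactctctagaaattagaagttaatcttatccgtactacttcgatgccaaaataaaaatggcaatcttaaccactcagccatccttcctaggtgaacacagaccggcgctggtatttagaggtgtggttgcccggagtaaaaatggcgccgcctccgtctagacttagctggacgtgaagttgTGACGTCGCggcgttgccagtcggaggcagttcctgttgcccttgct
Psmb8: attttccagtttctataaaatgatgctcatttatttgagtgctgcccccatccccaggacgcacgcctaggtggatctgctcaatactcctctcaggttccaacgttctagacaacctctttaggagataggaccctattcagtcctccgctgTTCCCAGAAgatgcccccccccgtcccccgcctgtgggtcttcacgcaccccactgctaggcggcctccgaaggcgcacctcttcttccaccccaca
Psmb6: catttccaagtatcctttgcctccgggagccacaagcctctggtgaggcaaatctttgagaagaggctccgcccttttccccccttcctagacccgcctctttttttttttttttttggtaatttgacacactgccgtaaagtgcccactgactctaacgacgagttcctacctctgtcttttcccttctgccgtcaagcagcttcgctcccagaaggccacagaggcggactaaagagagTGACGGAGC
Psmb9: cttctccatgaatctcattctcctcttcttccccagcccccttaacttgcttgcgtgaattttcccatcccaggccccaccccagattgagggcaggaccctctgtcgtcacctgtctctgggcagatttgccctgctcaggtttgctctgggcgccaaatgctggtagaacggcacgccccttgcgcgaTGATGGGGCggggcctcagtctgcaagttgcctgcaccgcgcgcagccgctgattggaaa
The window of Psmb8 held 1 match to TTCNNNGAA, starting 97 bases before the start. Each of the other windows held 1 match to TGANNNNGC, starting 47, 9 and 60 bases before the start in Psmb5, Psmb6 and Psmb9. None of these 4 windows held an exact match to GAAA and GAAA 2 bases apart, and no matches overlapped.

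Promoter windows were matched for 40 of the 48 symbols, in 43 windows. TGANNNNGC was found in 17 of the 43, a share of 39.5%, against 35.2% of all 32851 windows of the same length. TTCNNNGAA was found in 2 of them, Psmb8 and Psmg1 (4.65%, against 7.02% of all). GAAA and GAAA 2 bases apart was found in 3, Psmb3, Psmd4 and Psmd9 (6.98%, against 2.98% of all), and in 0 of the 6 immunoproteasome windows. Those windows include overlapping ones of Psme2. Longer or inexact forms of the interferon-stimulated response element were not searched, so its presence or absence in these promoters was not tested. A match is a description of letters, not a bound site.

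Psmb9 was the 1 member that passed the test. Its first row (ENSMUSG00000024337) stood at 21.4, 26.6 and 17.7 FPKM in the 3-month libraries. At 19 months it stood at 34.2, 51.5 and 33.9 FPKM, and at 24 months at 35.9, 26.9 and 31.1 FPKM. All 6 older libraries lay above all 3 young ones, though the lowest of 24 months only just. The mean of 21.9 ± 4.46 FPKM at 3 months rose at 19 months to 39.9 ± 10.1 FPKM (log2 0.83 ± 0.19, limma adjusted p = 0.038). At 24 months it was at 31.3 ± 4.49 FPKM, a log2 change of 0.51 ± 0.19 from 3 months that did not pass (limma adjusted p = 0.135). The F test for a change at any age called it too (limma adjusted p = 0.0442). Of all 11620 tested genes, 0.602% were called higher at 19 against 3 months, and 0.938% lower; the members had 1 (2.13%) and 0 of 47. It rests on the choice of genes in the fit: with all 14275 rows of every gene type it was not called (limma adjusted p = 0.175), nor was any other member at any comparison, while that fit called 0.28% of its rows at 19 against 3 months, 0.203% at 24 against 3 and 0.049% at 24 against 19 months. Its F test called 0.224% of the rows and 0 members. It was lost without 3 months replicate 1 or 3, 19 months replicate 2 or 3, or 24 months replicate 4, at limma adjusted p of 0.0525 to 0.174.

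A second row of Psmb9 (ENSMUSG00000092299) was lower, and reads of the gene may be split between the rows. It stood at 7.78, 9.33 and 7.04 FPKM at 3 months, 8.69, 15.1 and 12.1 FPKM at 19 months and 12.9, 15.2 and 11.7 FPKM at 24 months. The 24-month libraries lay above the young ones (log2 0.66 ± 0.19, limma adjusted p = 0.0662), while those of 19 months overlapped them (log2 0.49 ± 0.19, limma adjusted p = 0.222). With both rows summed, the log2 change at 19 months was 0.76 (limma adjusted p = 0.0407).

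Psmb8 lies near Psmb9 in the MHC region. It stood at 16.9, 24.8 and 12.4 FPKM at 3 months, 22.6, 41.9 and 27.1 FPKM at 19 months and 32.3, 20.6 and 28.3 FPKM at 24 months. The ages overlapped, through 3 months replicate 2 above and 19 months replicate 1 and 24 months replicate 3 below. The log2 changes from 3 months were 0.74 ± 0.25 at 19 months and 0.59 ± 0.25 at 24 months (limma adjusted p = 0.157 and 0.183). Psmb10 stood at 16.4, 24.2 and 17.0 FPKM, then 28.8, 30.9 and 29.8 FPKM, then 29.7, 28.3 and 23.5 FPKM. Its 19-month libraries lay above all 3 young ones, and those of 24 months did not. Its log2 changes were 0.63 ± 0.16 and 0.49 ± 0.16 (limma adjusted p = 0.0617 and 0.0937).

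**Figure D2:**
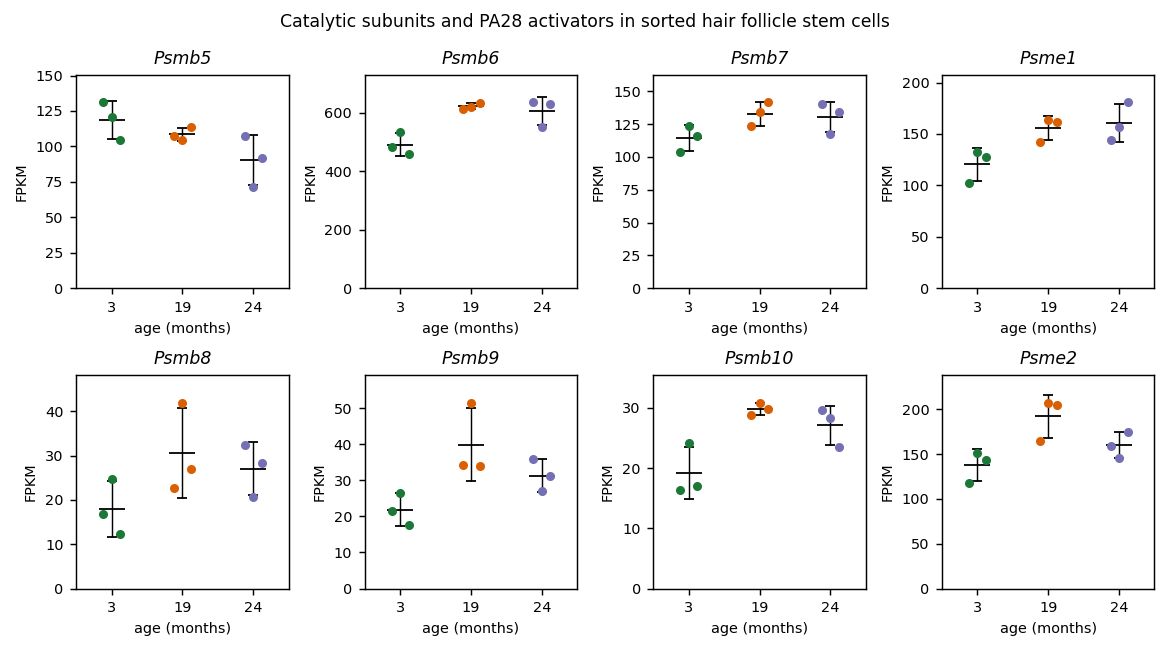
FPKM of the constitutive catalytic subunits (Psmb5, Psmb6, Psmb7), their interferon-induced counterparts (Psmb8, Psmb9, Psmb10) and the activator subunits Psme1 and Psme2; points are single libraries, and bars are the mean and SD of 3 libraries at 3, 19 and 24 months. Psmb9 is its first row, and its 6 older libraries lie above the 3 young ones; Psmb5 is the 1 gene shown whose mean is highest at 3 months.

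The activator genes Psme1 and Psme2 were several times higher than the inducible catalytic subunits. Psme1 stood at 102, 132 and 127 FPKM at 3 months, 142, 164 and 161 FPKM at 19 months and 145, 157 and 181 FPKM at 24 months. Its 6 older libraries lay above the young ones, with log2 changes of 0.37 ± 0.14 and 0.41 ± 0.14 (limma adjusted p = 0.209 and 0.108). Psme2 stood at 118, 152 and 144 FPKM, then 164, 207 and 205 FPKM, then 159, 146 and 175 FPKM. Its 19-month libraries lay above all young ones and those of 24 months overlapped both, with log2 changes from 3 months of 0.48 ± 0.14 and 0.22 ± 0.14 (limma adjusted p = 0.11 and 0.397). Psme2 has a near-identical retrocopy, listed as Psme2b-ps at 8.23 to 18.1 FPKM. How reads that fit both were assigned is not stated, so the value of Psme2 is uncertain by an unknown amount. Over the 6 immunoproteasome rows, of which 2 are Psmb9, 6 had a log2 change above 0 at both older ages. Of all tested genes, 50.7% had one at 19 months and 49.6% at 24 months. Above the 90th percentile of level, where Psme1 and Psme2 lie, the shares were 84.1% and 75.2%. The medians of the 6 rows were 0.56 at 19 and 0.50 at 24 months. Against these, the median over all tested genes was 0.01 at 19 months and -0.0035 at 24 months.

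The constitutive catalytic subunits did not go one way. Psmb5, the chymotrypsin-like subunit, stood at 131, 121 and 105 FPKM at 3 months, 107, 105 and 114 FPKM at 19 months and 107, 71.7 and 92.1 FPKM at 24 months. The ages overlapped, and the log2 changes were -0.12 ± 0.15 and -0.40 ± 0.15 (limma adjusted p = 0.733 and 0.14). Psmb6, the caspase-like subunit, stood at 481, 535 and 458 FPKM, then 613, 621 and 633 FPKM, then 635, 552 and 631 FPKM. All its older libraries lay above all young ones, and the log2 changes, 0.34 ± 0.13 and 0.30 ± 0.13, missed the threshold (limma adjusted p = 0.219 and 0.198). Psmb7, the trypsin-like subunit, stood at 104, 124 and 116 FPKM, then 123, 134 and 142 FPKM, then 140.0, 118 and 134 FPKM. Its ages overlapped (log2 0.22 ± 0.13 and 0.19 ± 0.13, limma adjusted p = 0.433 and 0.419).

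Ratios within a library do not depend on the scaling between libraries, and are given as a description with no test. Psmb8 was 12.9%, 20.5% and 11.8% of Psmb5 at 3 months. It was 21.1%, 40.0% and 23.8% of Psmb5 at 19 months and 30.1%, 28.7% and 30.7% at 24 months, so all 6 older libraries were above the young ones. Psmb9, first row, was 4.42% ± 0.553 of Psmb6 at 3 months, 6.41% ± 1.63 at 19 months and 5.15% ± 0.434 at 24 months. Psmb10 was 16.6% ± 2.56, 22.5% ± 1.22 and 20.9% ± 3.28 of Psmb7. At 19 months both ratios lay above the 3 young libraries, and at 24 months both overlapped them. The second row of Psmb9 differed in this. It was 1.62%, 1.75% and 1.54% of Psmb6 at 3 months and 1.42%, 2.43% and 1.91% at 19 months, which overlapped. At 24 months it was 2.03%, 2.76% and 1.86%, above all 3 young libraries. Psmb5 against Psmb6, a pair chosen after its values were seen, went from 27.2%, 22.6% and 22.8% at 3 months to 17.5%, 16.9% and 18.0% at 19 months and 16.9%, 13.0% and 14.6% at 24 months. The young libraries were above all older ones in that ratio.

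**Figure D3:**
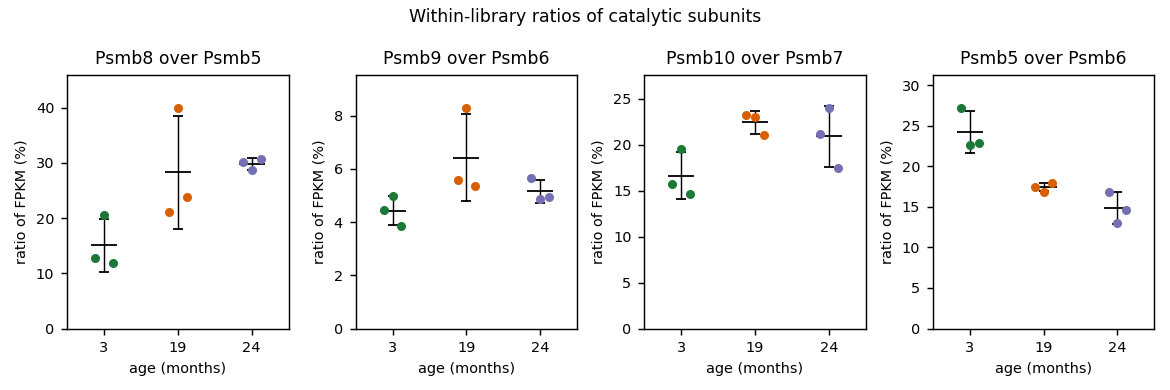
Ratio of FPKM within each library, in percent, for Psmb8 over Psmb5, Psmb9 (first row) over Psmb6, Psmb10 over Psmb7 and Psmb5 over Psmb6; points are libraries, and bars are the mean and SD of 3 libraries at 3, 19 and 24 months. The 6 older libraries lie above the 3 young ones for Psmb8 over Psmb5 and below them for Psmb5 over Psmb6.

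Beyond these genes no single subunit passed. At 19 against 3 months, 43 of 47 members had a log2 change above 0 (91.5%, against 50.7% of all tested genes), with a median of 0.27. In 17 of 47 members all 3 libraries of 19 months lay above all 3 of 3 months (36.2%, against 11% of all tested genes), and in 0 the reverse (11.5% of all). These shares are to be read with the members' level. Of the 1162 tested genes above the 90th percentile of level (77.7 FPKM), 84.1% had a log2 change above 0 and 33.6% lay wholly above the young libraries, with a median change of 0.22. The 25 members at that level had 24 changes above 0, 13 wholly above, and a median of 0.31. Quantile normalisation, which evens out such level-wide shifts, lowered the median of the members from 0.27 to 0.12 and the number above 0 to 36 of 47.

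By role, the 7 tested alpha ring rows had log2 changes between 0.23 and 0.33 at 19 months, the narrowest span of any group with more than 3 rows. The 6 ATPase rows had a median of 0.34, and in 5 of them, all but Psmc6, the 19-month libraries lay wholly above the young ones. In the constitutive beta ring 5 of 7 were above 0 (median 0.30), the exceptions being Psmb4 and Psmb5. The 8 lid rows had a median of 0.13 and ran from -0.13 for Psmd3 to 0.46 for Psmd11. The 3 non-ATPase base rows lay between 0.01 and 0.12. At an unadjusted p under 0.05, 19 of 47 members were higher and 0 lower (8.3% and 7.29% of all tested genes), including all 6 immunoproteasome rows, 4 of 6 ATPases and 1 of 8 lid rows.

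At 24 against 3 months limma called 0 of 47 members, while it called 1.49% of all tested genes higher and 2.31% lower. At an unadjusted p under 0.05, 10 members were higher and 1, Psmb5, lower (10.3% and 11.3% of all tested genes). The smallest adjusted p was that of Psma3 (0.0599), an alpha ring subunit named after its values were seen. It stood at 156.1, 168 and 156.03 FPKM at 3 months, 183, 202 and 211 FPKM at 19 months and 206, 214 and 228 FPKM at 24 months, with all older libraries above the young ones. Over all members 35 of 47 were above 0 (74.5%, against 49.6% of all tested genes and 75.2% of those above the 90th percentile of level), with a median of 0.17.

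At 24 months most lid rows and the non-ATPase base rows had log2 changes below 0 and all core rows except Psmb5 above it, with no member called. Of the 8 lid rows 2 were above 0 (median -0.11), and of the 3 non-ATPase base rows 0 (median -0.21), while the 7 alpha ring rows and the 6 ATPase rows were all above 0 (medians 0.22 and 0.20). Against 3 months, 11 members lay wholly above the young libraries (23.4%, against 10.6% of all tested genes and 23.1% of those above the 90th percentile of level), and 2 wholly below (4.26%, against 12%), the lid genes Psmd12 and Psmd3. The lid gene Psmd6 stood at 70.4, 86.2 and 79.0 FPKM at 3 months, 81.9, 87.6 and 86.9 FPKM at 19 months and 72.8, 62.0 and 61.6 FPKM at 24 months. Its 24-month libraries lay below those of 19 months and overlapped those of 3 months (log2 -0.38 ± 0.13 against 19 months, limma adjusted p = 0.201). Psmd6 too was named after its values were seen.

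**Figure D4:**
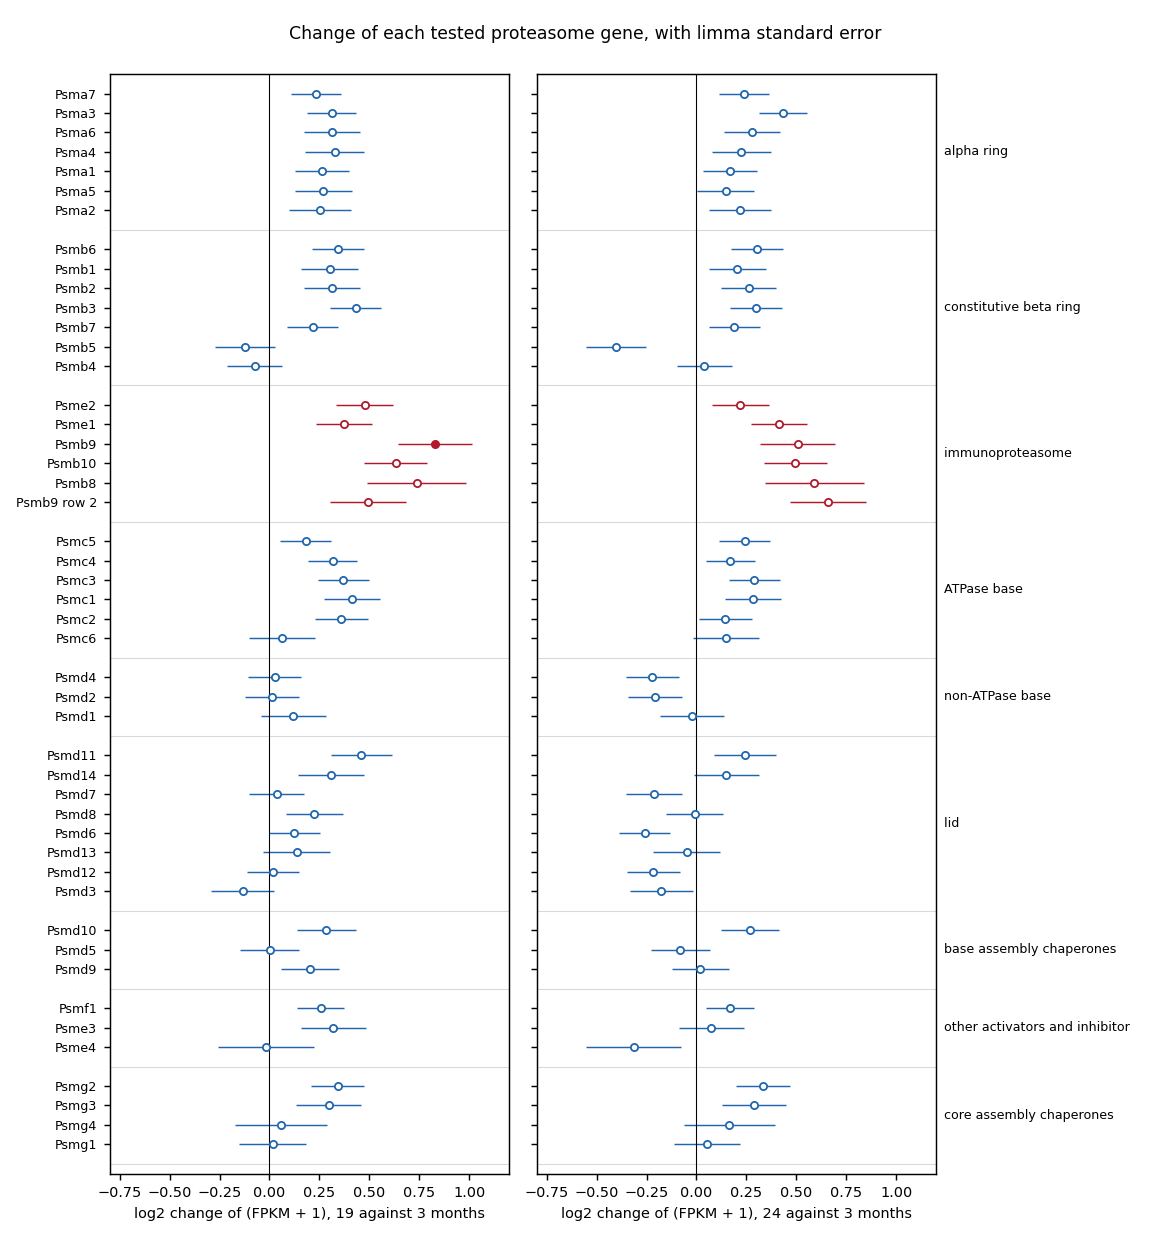
Log2 change of (FPKM + 1) at 19 against 3 months (left) and 24 against 3 months (right) for the 47 tested proteasome rows by role, with limma's standard errors; both comparisons share the 3-month libraries. Red marks the immunoproteasome rows, and the filled point is Psmb9 at 19 months, the 1 change with an adjusted p under 0.05; most lid rows lie above 0 at 19 months and below it at 24 months.

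At 24 against 19 months limma again called 0 of 47 members (0.68% of all tested genes were called higher and 0.189% lower), and at an unadjusted p under 0.05 there were 0 higher and 1 lower, Psmd6 (5.75% and 6.92% of all tested genes). In 9 of 47 members the log2 change was above 0 (19.1%, against 46.9% of all tested genes and 40.3% of those above the 90th percentile of level). The median was -0.10 over the members, -0.02 over all tested genes and -0.04 over those above that percentile. In 0 members did the 24-month libraries lie wholly above those of 19 months (7.95% of all tested genes and 6.45% of those above that percentile). The 24-month libraries lay wholly below those of 19 months in 5 members, Psmc4, Psmd4, Psmd6, Psmd12 and Psmf1 (10.6%, against 10.4% of all tested genes). The first row of Psmb9 had a log2 change of -0.32 ± 0.19 (limma adjusted p = 0.516). The F test over the 3 ages called 1 of 47 members, Psmb9, while it called 4.43% of all tested genes.

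The other activators lay near the middle of all tested genes, at the 58.6th percentile of level for Psme3 and the 53.3rd for Psme4, and the inhibitor gene Psmf1 at the 83.3rd. Psme3, of the nuclear activator, stood at 11.7, 13.7 and 14.8 FPKM at 3 months, 14.1, 19.1 and 17.9 FPKM at 19 months and 13.5, 12.7 and 16.4 FPKM at 24 months. Psme4, an activator tied to acetylated histones, stood at 8.87, 12.3 and 18.7 FPKM, then 12.3, 11.8 and 13.8 FPKM, then 8.23, 14.5 and 8.43 FPKM. Ages overlapped in both genes, and the log2 changes from 3 months were 0.32 ± 0.16 and 0.07 ± 0.16 for Psme3 and -0.02 ± 0.24 and -0.31 ± 0.24 for Psme4 (smallest limma adjusted p = 0.353). Psmf1, an inhibitor of the core in vitro, stood at 39.1, 42.9 and 42.9 FPKM at 3 months, 49.9, 52.2 and 47.6 FPKM at 19 months and 47.6, 45.9 and 47.1 FPKM at 24 months. Its older libraries lay above the young ones by a small margin (log2 0.26 ± 0.12 and 0.17 ± 0.12, limma adjusted p = 0.313 and 0.44).

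Libraries of 1 age differed in their proteasome level. The median deviation of the 47 members from their 9-library means was -0.27, -0.02 and -0.18 on the log2 scale in 3 months replicates 1, 2 and 3, against -0.04, 0.03 and 0.01 over all tested genes. At 19 months it was 0.01, 0.17 and 0.16, and at 24 months 0.05, -0.09 and 0.11 in replicates 2, 3 and 4. Whether other highly expressed genes deviated alike in these libraries was not tested. The immunoproteasome rows had their highest median in 19 months replicate 2, at 0.41, and their lowest in 3 months replicates 3 and 1, at -0.53 and -0.47. Within an age the median SD of the members was 0.16 on the log2 scale, against 0.21 over all tested genes. The median level of the members lay at the 90.9th percentile, and the spread of other genes at such levels was not computed.

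**Figure D5:**
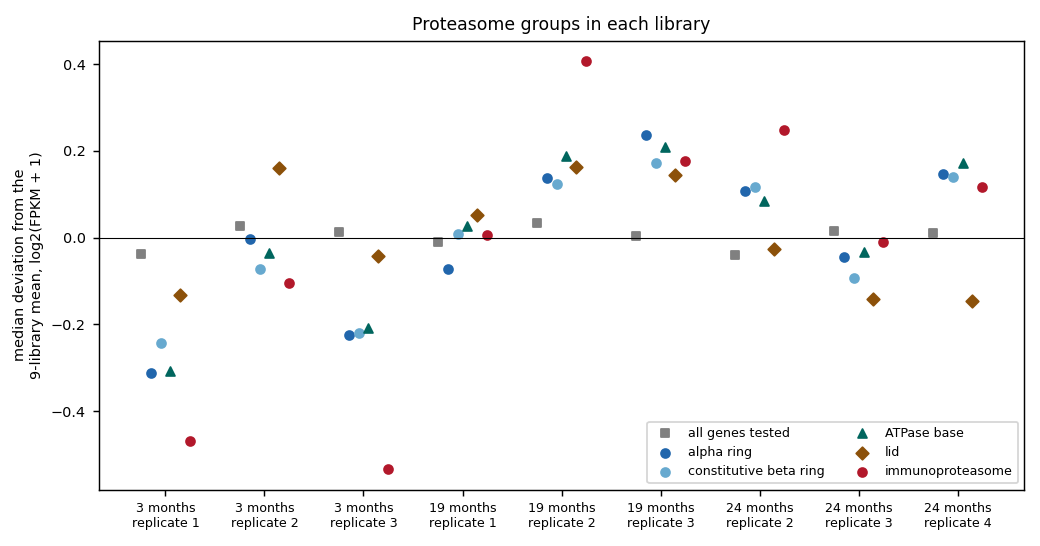
Median deviation of each group from the 9-library means of its genes, on the log2(FPKM + 1) scale, in each library, with all tested genes as grey squares. Lowest are the immunoproteasome rows in 3 months replicates 1 and 3, highest the same rows in 19 months replicate 2, and the lid rows fall below 0 in all 3 libraries of 24 months.

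Immune cells express the immunoproteasome constitutively, and a sort can carry some of them. The list of 20 measured immune markers holds Epcam, a Langerhans cell marker that keratinocytes also express and that stood at 24.2 to 52.2 FPKM. Without Epcam, left out after its values were seen, the summed FPKM of the other 19 was 63.7 to 123 at 3 months, 56.6 to 96.9 at 19 months and 73.8 to 113 at 24 months, and these ranges overlap. With it they were 99.8 to 152, 91.6 to 133 and 112 to 157 FPKM. The pan-leukocyte gene Ptprc lay between 0.0756 and 0.620 FPKM and was not tested. The macrophage gene Lyz2 was listed at 0 in 8 libraries and Cd4 in 6, and no marker of the list was at 0 in all 9. Of the 12 tested markers other than Epcam, 1 had a log2 change above 0 at 19 against 3 months, the leukocyte actin regulator gene Coro1a (log2 0.47), and Epcam's was 0.30. The Fc receptor chain gene Fcer1g fell by 0.90 ± 0.20 (limma adjusted p = 0.039), and the other 10 lay below 0 and were not called. At 24 against 3 months 8 of the 12 were above 0 with none called. At 24 against 19 months 10 of the 12 were above 0, and Fcer1g rose by a log2 of 1.45 ± 0.20 (limma adjusted p = 0.00436). The part of immune cells in the members' levels was not tested.

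Markers of other skin cells differed between ages as well. All 4 tested sebaceous gland markers were called lower at both older ages, and the sum of the 5 measured was 58.2 to 76.6 FPKM at 3 months, 19.8 to 28.4 FPKM at 19 months and 19.6 to 26.0 FPKM at 24 months. Of 4 tested melanocyte markers 1, the pigment enzyme gene Tyrp1, was called lower at both older ages, and both tested endothelial markers, Egfl7 and Ramp2, were called lower at 24 against 3 months. Among 6 tested bulge markers the transcription factor gene Sox9 was called higher at 19 months and the stem cell receptor gene Lgr5 lower at 24 months, both against 3 months. Of 2 tested fibroblast and 4 tested differentiated epidermis markers 0 were called. The part of these cells in the members' levels was not tested.

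Among 12 tested genes of interferon signalling, 1 was called higher and 1 lower at 19 against 3 months. The transcription factor gene Irf1, a known inducer of Psmb9, rose from 11.1 ± 1.80 to 25.0 ± 6.29 FPKM (log2 1.09 ± 0.19, limma adjusted p = 0.00886). Ifngr1, a chain of the interferon gamma receptor, fell from 43.3 ± 6.89 to 26.6 ± 4.65 FPKM (log2 -0.69 ± 0.16, limma adjusted p = 0.0399) and rose to 49.6 ± 4.41 FPKM at 24 against 19 months (log2 0.88 ± 0.16, limma adjusted p = 0.0197). At 24 against 3 months 0 of the 12 were called.

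Of 13 tested genes that process and load class I peptides, H2-M3, a nonclassical class I gene, was called higher at 19 and at 24 against 3 months. The chaperone gene Pdia3 was at 213 ± 52.3 FPKM at 3 months and fell by 24 months to 117 ± 21.5 FPKM (log2 -0.84 ± 0.18, limma adjusted p = 0.0215). B2m, the class I light chain, stood at 1353 ± 169, 2323 ± 735 and 2092 ± 332 FPKM (limma adjusted p = 0.111 at 19 months). The peptide transporter gene Tap1, which shares the MHC region with Psmb8 and Psmb9, stood at 36.6 ± 1.82, 44.8 ± 7.36 and 42.1 ± 8.75 FPKM and was not called. Tap2, named after its values were seen, went the other way and was not called either. Its log2 changes from 3 months were -0.27 ± 0.21 at 19 months and -0.78 ± 0.21 at 24 months (limma adjusted p = 0.582 and 0.0568). Of the 13 genes, 10 had a log2 change above 0 at 19 against 3 months, and 7 at 24 against 3 months.

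Of 23 tested partners of the proteasome, which include its assembly factors, ubiquitin receptors and transcriptional regulators, 0 were called at 19 months and 1 lower at 24 against 3 months. That gene was Nfe2l1, the transcription factor that induces proteasome subunits when proteasome activity is low. It stood at 29.9, 37.2 and 34.1 FPKM at 3 months, 27.5, 27.7 and 28.7 FPKM at 19 months and 26.0, 19.4 and 22.5 FPKM at 24 months. Its older libraries lay below all young ones (log2 -0.56 ± 0.14 at 24 months, limma adjusted p = 0.0401, and 0.0943 with all rows of every gene type). The core maturation factor Pomp stood at 236 ± 30.7, 293 ± 37.8 and 274 ± 47.4 FPKM and was not called. Of 4 tested genes that encode or activate ubiquitin, 0 were called at any comparison.

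For these lists too the calls depended on the genes in the fit. With all rows of every gene type, H2-M3 at 19 months (limma adjusted p = 0.0362), the sebaceous genes Scd1 at both older ages (0.0197 and 0.0276) and Far2 at 19 months (0.0477), and the endothelial gene Ramp2 at 24 months (0.0334) were still called, all against 3 months. The other calls named for these lists were not, among them Irf1 (limma adjusted p = 0.112), Ifngr1 (0.163 and 0.178), Fcer1g (0.152 and 0.0923) and Pdia3 (0.117).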

How the data were processed

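RNA was measured in 9 libraries of sorted hair follicle stem cells, 3 for each of 3 ages. The authors deposited 1 table of FPKM values with 1 row per gene; per the submitters' processing notes, TopHat, Cuffdiff and NCBIM37 were used. The sources used here give no version, setting, annotation or use of strand. Without strand, members that overlap other genes are uncertain.

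Gene types came from GENCODE by Ensembl ID and, failing that, by symbol, for 35279 of 37980 rows. Protein-coding rows that reached 1 FPKM in 3 or more libraries and were not listed at 0 throughout an age entered limma (version 3.58.1, R 4.3.3) on log2(FPKM + 1) with a trended prior and all libraries in 1 model, tested on simulated data. Other gene types were left out because small RNA rows among them have a larger spread: a median SD of 2.19 in 684 rows against 0.21. The spread of the other rows left out was not computed.

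Members, lists and this fit were chosen with earlier results of these data known. Library values were given for the catalytic subunits, their inducible counterparts, activators, inhibitor and called members; the highest and lowest of each role were given by range. Alternatives varied the genes, prior, pseudocount, filter, scaling, samples and block.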

Additional observations from a re-analysis of the deposited data

How the results depend on the processing

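The number of members called was small enough for single settings to change it. At 19 against 3 months (1 in the report) it was 0 with all rows of every gene type, whether those listed at 0 were kept or left out, 0 with no filter on low values and 0 with quantile normalisation; the replicate number as a block gave 3 (Psmb8, Psmb9 and Psmb10), and leaving out 1 library gave 0 to 2. At 24 against 3 months (0) it was 1 with quantile normalisation (second row of Psmb9), 1 with median-ratio scaling (Psma3), and 0 to 1 without 1 library (Psmb10 without 3 months replicate 2, the second row of Psmb9 without 19 months replicate 1). In the F test (1) it was 0 under the same 4 settings and with median-ratio scaling, 2 with the block (Psmb8 and Psmb9) and 0 to 2 without 1 library. At 24 against 19 months it was 0 under every alternative run. The adjusted p of Psmb9 at 19 months lay between 0.00819 (block) and 0.179 (all gene types, those listed at 0 left out). Deviations of same-numbered libraries of different ages had correlations of -0.20 to 0.19 over 7 pairs, 3 of them over 0.1. For differently numbered libraries they were -0.23 to 0.16 over 20 pairs, 5 of them over 0.1. These ranges overlap, and the numbers are not taken to pair the libraries.

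Of 717 log2 changes of the catalytic, activator and inhibitor genes under alternatives, 17 changed sign, all of changes that were not called. With quantile normalisation these were Psmb6 (2.79e-05) and Psmb7 (0.055) at 24 against 19 months and Psme4 at 19 against 3 months (0.0015); with the replicate block, Psme1 at 24 against 19 (-0.14) and Psme3 at 24 against 3 months (-0.13). Without 1 library the range at 24 against 19 months was -0.075 to 0.026 for Psmb6, -0.081 to 0.045 for Psmb7, -0.047 to 0.11 for Psme1, -0.33 to 0.10 for Psmb8 and -0.027 to 0.34 for the second row of Psmb9. It was -0.026 to 0.14 for Psme3 at 24 against 3 months and -0.26 to 0.24 for Psme4 at 19 against 3 months. Over all tested genes the fit called 179, 442, 101 and 515 (19 against 3, 24 against 3, 24 against 19 months, F test), against 40, 29, 7 and 32 with all rows, 25, 0, 0 and 0 without those listed at 0, and 65, 233, 4 and 108 with no filter; the block gave 161 at 24 against 3 months. The cause of these differences was not tested, and summing the Psmb9 rows was added after the data were seen. The unknown depth limits all values below about 1 FPKM.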
